A study of Rattus norvegicus with 8 samples.

Results

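Plasma cell and IgA transport genes were examined here as a list of 10 genes taken for their known function: the transcription factors Pou2af1, Irf4, Prdm1, Xbp1 and Bhlha15, the survival receptor Tnfrsf17, the secretory pathway genes Mzb1 and Derl3, the immunoglobulin joining chain Jchain and the transport receptor Pigr. Of the 10, 9 were matched to a probe and all 9 entered the test, among 19901 genes tested. Probes were named through the accessions of the gene table used here, which paired none with Jchain nor with any of 14 immunoglobulin genes looked up, so the antibody chains themselves were not analysed here. The tissue was a piece from the middle of the colon of 16 female Wistar rats that were 6 weeks old according to the labels and ate their diet for 3 weeks. The arrays compared a reference diet (REF, 4 rats), a diet with 10 % cocoa (C10, 4 rats), a diet with cocoa fiber (CF, 4 rats) and a diet with inulin (I, 4 rats). Cocoa powder carries polyphenols as well as fiber, the CF diet supplied the fiber of cocoa with few polyphenols, and inulin is a purified soluble fiber. No genetic change is named for any of the rats.

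The 16 RNAs were hybridised on 8 two-colour arrays, with 1 rat of a diet in Cy5 and 1 rat of another diet in Cy3. C10 shared 2 arrays with REF and 2 with CF, and I shared 2 arrays with REF and 2 with CF, so no C10 rat met an I rat and no CF rat met a REF rat on an array. All C10 rats were on arrays 1 to 4 and all I rats on arrays 5 to 8, while REF and CF rats were on both sets. A difference of C10 from I is therefore also one between these sets of arrays. The median signal of an array was 302.5 to 426.5 in Cy5 and 109.5 to 169 in Cy3, and 68.6 to 83.9 % of the spots were well above background in a channel. Signals are given as normalized log2 values, on which 1 unit is a 2-fold difference. The lowest signal of a tested gene that was well above background lay between 5.82 and 6.27 in a channel. Levels of different probes were not set against each other. Epithelial markers (14 genes) had a mean log2 signal of 14.05 to 14.95 in the 16 rats, which fits the labelled tissue.

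Plasma cells are the end stage of B cell development and secrete antibody. In the gut wall most of them lie in the lamina propria and make IgA, whose units are linked by the joining chain, and epithelial cells carry that IgA into the lumen with the polymeric immunoglobulin receptor, the product of Pigr. Irf4 and Prdm1 set the plasma cell program, Xbp1 and Bhlha15 expand the secretory apparatus, Pou2af1 is a B cell coactivator, and Tnfrsf17 (BCMA) receives survival signals. In pieces of whole colon, fewer plasma cells and less RNA per plasma cell cannot be told apart.

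Derl3, whose product takes misfolded proteins out of the endoplasmic reticulum, was the only one of the 9 genes that limma called in any of the 6 comparisons. It fell in C10 against I by 1.30 on the log2 scale, a 2.45-fold lower level, and 3 other members that plasma cells express, Tnfrsf17, Mzb1 and Bhlha15, had lower fitted levels in C10 than in each of the other diets without passing. The Derl3 call was lost with within-array ratios (adjusted p = 0.563) and with the set of arrays, 1 to 4 against 5 to 8, as a term (adjusted p = 0.155). Arrays 1 to 4 held all C10 rats and arrays 5 to 8 all I rats. A rank product called 1 to 5 members in 4 of the comparisons, against 0.151 to 0.683 % of all genes. Pigr and Xbp1, which epithelial cells also express, differed in C10 by at most 0.28 from any other diet. Not all members of the B and plasma cell lineage fell in C10. Pou2af1 and Prdm1 differed from REF by 0.13 and -0.08 and from I by -0.95 and -0.43, without passing, and Irf4 was near background. The plot shows all 9 genes by rat.

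**Figure D1:**
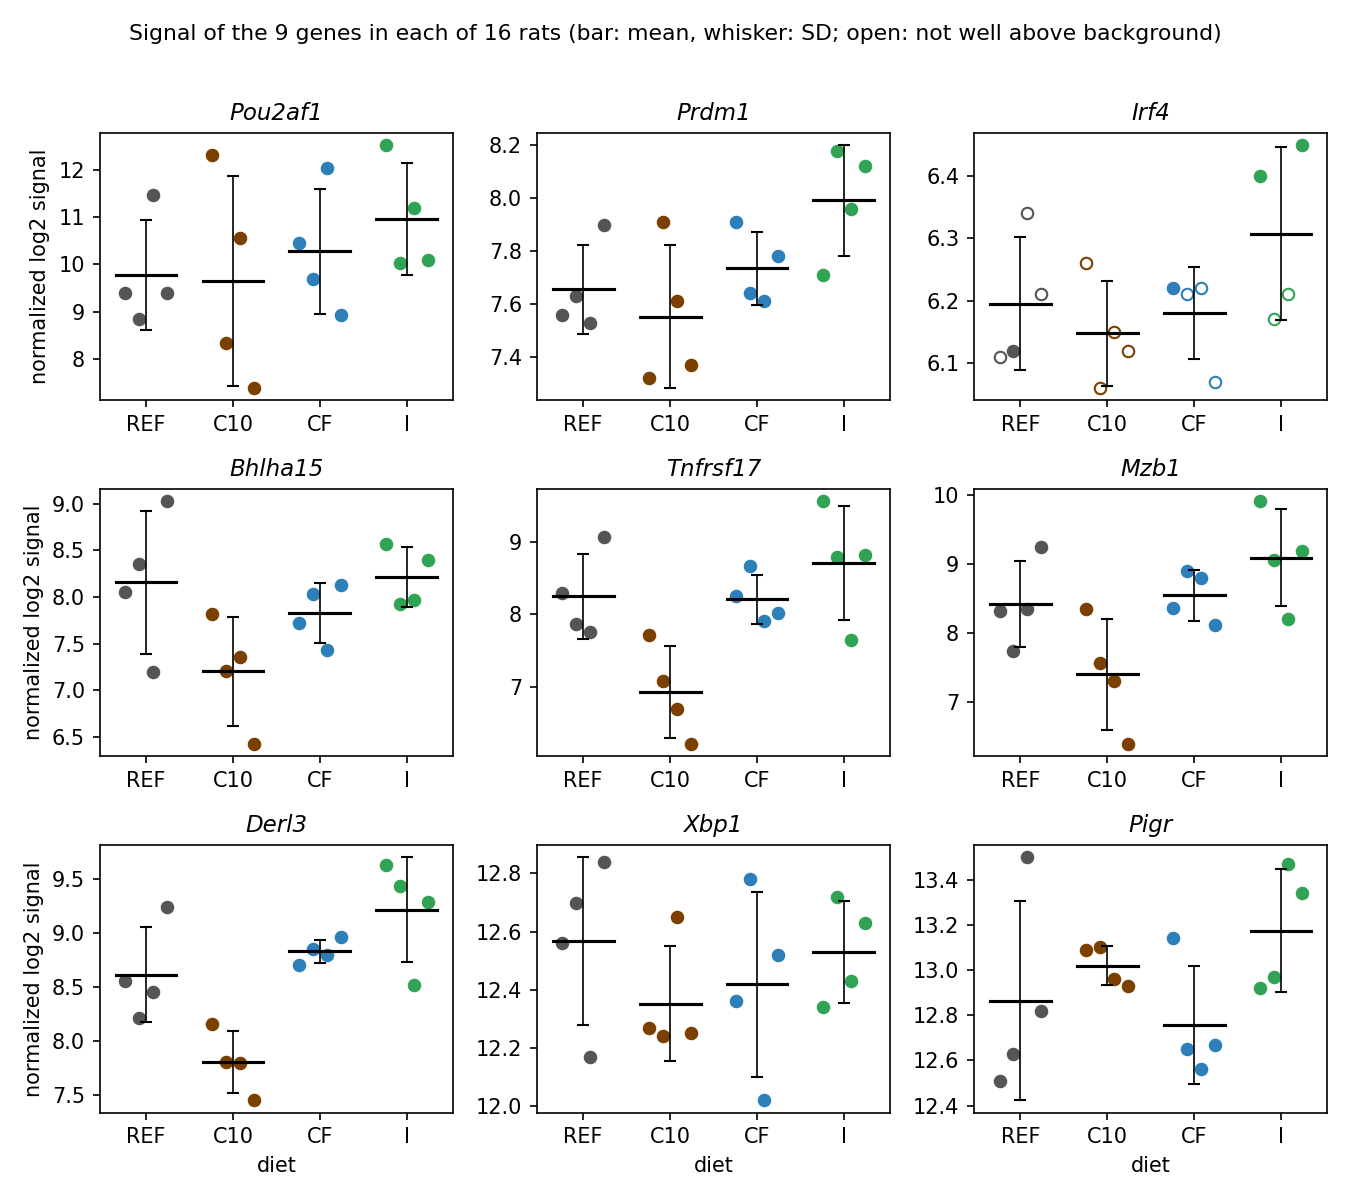
Normalized log2 signal (y axis) of the 9 measured genes in each rat by diet (x axis), with 1 point per rat, the mean as a bar and the SD as a whisker; open points were not well above background. The C10 points of Tnfrsf17 and Derl3 lie below every REF and CF point, while Pou2af1 spreads over 35.9-fold and Pigr over 1.99-fold across the 16 rats.

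The promoters of 3 members are printed because 2 of these genes, Derl3 and Xbp1, hold the same rare motif and the third, Tnfrsf17, holds no match to it. Each line gives the 250 bases before the annotated start on the strand of the gene, from RefSeq in the build GRCr8, with motif matches in capitals. The windows lie at chr20:12766466-12766715 on the minus strand (Derl3), chr14:84604373-84604622 on the plus strand (Xbp1) and chr10:4813773-4814022 on the minus strand (Tnfrsf17).
Derl3: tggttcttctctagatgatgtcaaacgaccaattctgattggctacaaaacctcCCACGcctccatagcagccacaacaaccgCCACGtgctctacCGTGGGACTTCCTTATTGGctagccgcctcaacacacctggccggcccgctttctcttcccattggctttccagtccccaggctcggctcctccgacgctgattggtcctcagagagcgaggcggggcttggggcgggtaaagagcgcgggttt
Xbp1: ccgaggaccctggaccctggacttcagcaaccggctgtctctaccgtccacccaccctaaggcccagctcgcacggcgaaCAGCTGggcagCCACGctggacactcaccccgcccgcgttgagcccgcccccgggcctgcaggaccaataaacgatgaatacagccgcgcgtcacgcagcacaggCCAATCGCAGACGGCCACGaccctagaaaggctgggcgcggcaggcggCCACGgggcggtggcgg
Tnfrsf17: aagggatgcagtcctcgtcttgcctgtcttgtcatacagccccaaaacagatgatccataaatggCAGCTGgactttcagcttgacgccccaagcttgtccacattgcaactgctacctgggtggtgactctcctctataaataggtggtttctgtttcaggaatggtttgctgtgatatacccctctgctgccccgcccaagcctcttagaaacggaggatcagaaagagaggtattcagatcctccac

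The long capital run in Derl3 is the endoplasmic reticulum stress response element (CCAAT, then 9 bases of any kind, then CCACG), read on the opposite strand at position -154 from the start, and that in Xbp1 is the same element read forward at -65. The element was searched on both strands over windows from 250 bases before to 50 after the start, and 22 of 33469 windows (0.0657 %) held it. Of the 10 members, 8 had a window, and 2 of the 8 held the element, which was added to the search after the Derl3 window had been seen. The short motif CCACG, which is also the end of the element, was held by 6 of 8 members and by 31.6 % of all windows. The E-box CAGCTG was found in Tnfrsf17 at -185 and Xbp1 at -170 (2 of 8 members, 15.1 % of windows), and the octamer ATGCAAAT (1.78 %) and TGACGTG (1.81 %) were found in none of the 8. A match is a run of letters and was not tied to any factor here.

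Among the transcription factors, Bhlha15 (Mist1), which shapes secretory cells, had the largest difference between C10 and REF. Its log2 signals were 8.05, 8.35, 7.19 and 9.03 in the 4 REF rats, 7.82, 7.20, 7.36 and 6.42 in C10, 7.72, 8.03, 7.43 and 8.13 in CF, and 8.57, 7.92, 7.97 and 8.40 in I. The C10 rats all lay below the I rats but overlapped with REF, where rat 3 was as low as C10, and with CF. The fitted difference of C10 from REF was -0.92 (SE 0.30, limma, adjusted p = 0.147), that from CF was -0.71 (SE 0.30, adjusted p = 0.325) and that from I was -1.05 (SE 0.32, adjusted p = 0.191). Without C10 rat 4, the lowest, these differences were -0.60, -0.20 and -0.64.

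Pou2af1 (OBF-1), a coactivator of immunoglobulin genes that B cells also express, varied most between rats of a diet. The log2 signals were 9.39, 8.85, 11.47 and 9.39 in REF, 12.32, 8.33, 10.57 and 7.38 in C10, 10.46, 9.69, 12.04 and 8.93 in CF, and 12.54, 10.02, 11.19 and 10.09 in I. The C10 group held both a rat near the top and the lowest rat of all 16, and the diets overlapped throughout. C10 differed from REF by 0.13 (SE 0.84, 95 % interval -1.67 to 1.92, adjusted p = 0.96), an interval that leaves room for several-fold differences in either direction. The 3 probes of Pou2af1 moved together over the 16 rats (r = 0.97 to 0.99).

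Prdm1 (Blimp-1), which ends the B cell program, had a narrow range of 7.32 to 8.18. The 4 I rats had log2 signals of 7.71, 8.18, 7.96 and 8.12, the REF rats 7.56, 7.63, 7.53 and 7.90, and the C10 rats 7.32, 7.91, 7.61 and 7.37. The I rats tended to the upper end but overlapped with both groups. The fitted difference was 0.36 for I against REF (SE 0.11, adjusted p = 0.806) and -0.43 for C10 against I (SE 0.12, adjusted p = 0.153). Its second probe gave 0.08 and -0.08, and the 2 probes were only loosely related (r = 0.41 over 16 rats).

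Irf4, which starts plasma cell differentiation, was not well above background in any C10 rat and was so in 1 REF, 1 CF and 2 I rats, with log2 signals of 6.06 to 6.45, so no difference is given for it. Xbp1, the transcription factor of the unfolded protein response, had its signals between 12.02 and 12.84 in all rats. Against REF its difference was -0.28 in C10 (SE 0.15, adjusted p = 0.362), and the diets overlapped.

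Tnfrsf17, the receptor through which plasma cells get survival signals, had the largest fitted differences of C10 from each of the other diets among the members. Its log2 signals were 8.29, 7.87, 7.76 and 9.06 in REF, 7.71, 7.08, 6.70 and 6.21 in C10, 8.25, 8.66, 7.90 and 8.01 in CF, and 9.56, 8.79, 7.65 and 8.82 in I. Every C10 rat lay below every REF and CF rat, with C10 rat 1 just under REF rat 3, and I rat 3 lay inside the C10 range. C10 was lower by a fitted 2.52-fold than REF (log2 -1.34, SE 0.37, 95 % interval -2.13 to -0.54, adjusted p = 0.0939), 2.46-fold than CF (log2 -1.30, SE 0.37, adjusted p = 0.146) and 3.52-fold than I (log2 -1.82, SE 0.40, adjusted p = 0.07). The last difference passed the test once REF rat 4 (-1.94, adjusted p = 0.0385), C10 rat 1 (-2.12, adjusted p = 0.0338) or I rat 3 (-2.17, adjusted p = 0.0481) was left out. It passed in only these 3 of 27 other settings, over which the adjusted p in limma reached 0.619. Without C10 rat 4 it was -1.45 (adjusted p = 0.123), and without I rat 1 it was -1.45 (adjusted p = 0.14).

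Mzb1, a chaperone that helps antibody fold and assemble in the endoplasmic reticulum, followed Tnfrsf17. The log2 signals were 8.32, 7.74, 8.35 and 9.25 in REF, 8.34, 7.57, 7.31 and 6.39 in C10, 8.36, 8.90, 8.80 and 8.11 in CF, and 9.91, 9.06, 8.20 and 9.19 in I. C10 rat 1 lay within the range of each of the other diets, and the other 3 C10 rats were the lowest of all 16. The fitted differences were -0.92 from REF (SE 0.39, adjusted p = 0.252), -1.11 from CF (SE 0.39, adjusted p = 0.237) and -1.56 from I (SE 0.43, 2.95-fold, adjusted p = 0.141). Leaving out C10 rat 1 took the difference from I to -1.94 and past the test (adjusted p = 0.0425), while leaving out C10 rat 4 took the difference from REF to -0.56 and that from CF to -0.55.

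Derl3 had log2 signals of 8.56, 8.21, 8.46 and 9.24 in REF, 8.16, 7.81, 7.80 and 7.45 in C10, 8.71, 8.85, 8.80 and 8.97 in CF, and 9.63, 9.44, 8.52 and 9.29 in I. All 4 C10 rats lay below all 12 other rats. Against I the level fell by 1.30 (SE 0.23, 95 % interval -1.79 to -0.80, adjusted p = 0.0261), and it was lower than CF by a fitted 1.92-fold (log2 -0.94, SE 0.21, adjusted p = 0.0688) and than REF by 1.72-fold (log2 -0.78, SE 0.21, adjusted p = 0.0899).

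The call on Derl3 in C10 against I was a narrow one. It was lost when the probes of a gene were averaged (-0.85, adjusted p = 0.0559), since its second, dimmer probe gave -0.41, with within-array log ratios (-1.13, adjusted p = 0.563) and with the set of arrays as a term (-1.13, adjusted p = 0.155). It was also lost without C10 rat 3 (adjusted p = 0.0625), C10 rat 4 (0.0554), CF rat 1 (0.0507), I rat 1 (0.0622), I rat 2 (0.116) or I rat 4 (0.0692), at differences of -1.35 to -1.11. Derl3 in C10 against CF had an adjusted p below 0.05 when REF rat 4 (-0.99, adjusted p = 0.0342), C10 rat 1 (-1.03, adjusted p = 0.0465) or I rat 3 (-0.98, adjusted p = 0.0384) was left out, and reached 2-fold, and so a call, only without C10 rat 1.

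Pigr, the receptor that carries IgA across the epithelium, had no lower level in C10. Its log2 signals were 12.51, 12.63, 13.50 and 12.82 in REF, 13.09, 13.10, 12.96 and 12.93 in C10, 13.14, 12.65, 12.56 and 12.67 in CF, and 12.92, 12.97, 13.47 and 13.34 in I. The C10 rats lay close together inside the range of the other diets. The difference of C10 was 0.25 from REF (SE 0.16, 95 % interval -0.10 to 0.61, adjusted p = 0.472), 0.24 from CF (SE 0.16, adjusted p = 0.565) and -0.09 from I (SE 0.18, 95 % interval -0.47 to 0.29, adjusted p = 0.888).

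**Figure D2:**
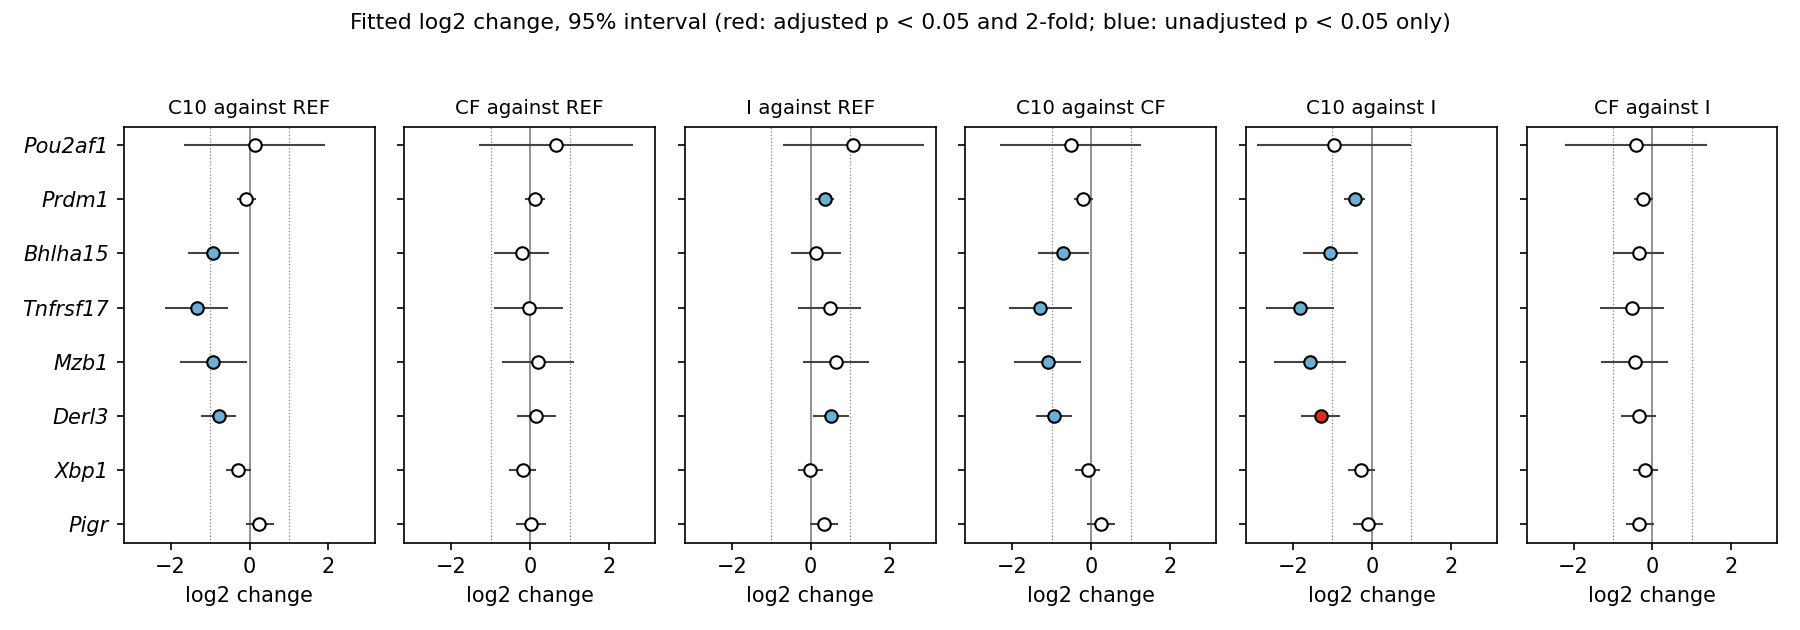
Fitted log2 change (x axis) with its 95 % interval for 8 genes (y axis) in the 6 comparisons of diets; red marks a call, blue an unadjusted p below 0.05 without a call, and Irf4 is left out because it was near background. The red point is Derl3 in C10 against I at -1.30, and the widest interval in each comparison is that of Pou2af1.

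Read as a list, the 9 genes leaned low in C10, and the share of all genes doing the same stands beside each count. Genes with an adjusted p below 0.05 whose level differed 2-fold or more were called. In C10 against REF, 0 of 9 members were called by limma against 0.196 % of all genes, 4 were lower at an unadjusted p below 0.05 (Tnfrsf17, Derl3, Bhlha15 and Mzb1) against 8.40 %, and 2 had all 4 C10 rats below all 4 REF rats against 2.04 %. Their median change was -0.28, and that of all genes was 0.01. The rank product, the test named in the methods of the study, called 2 members, Mzb1 and Tnfrsf17, against 0.683 % of all genes.

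In C10 against CF, 0 of 9 members were called by limma against 0.100 % of all genes, 4 were lower at an unadjusted p below 0.05 against 7.38 %, and 2 had all C10 rats below all CF rats against 1.95 %. The rank product called 3, Derl3, Mzb1 and Tnfrsf17, against 0.327 %. In C10 against I, limma called 1 member, Derl3, against 0.166 %, and 5 were lower at an unadjusted p below 0.05 against 6.01 %. Both Derl3 and Bhlha15 had all C10 rats below all I rats, 2 members against 2.47 % of genes, all 9 fitted differences were below 0 against 48.8 %, and the rank product called 5 (Derl3, Pou2af1, Bhlha15, Mzb1 and Tnfrsf17) against 0.548 %. The medians of the members were -0.52 and -0.95 in these comparisons, and those of all genes were 0. Both medians were the values of Pou2af1, the most variable member, and they were -0.17 and -0.40 without C10 rat 4 and -0.19 and -0.43 with the probes of a gene averaged. Mzb1, Tnfrsf17 and Bhlha15 are also in the gene list that the study drew from these same rats, so their direction is not independent evidence.

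Against REF, the median change of the members was 0.02 in CF and 0.36 in I, beside the -0.28 of C10. The medians of I and C10 were the values of single genes, Prdm1, whose second probe gave 0.08, and Xbp1. They do not rank the 2 diets. For Tnfrsf17, Derl3, Mzb1 and Bhlha15, singled out because they were low in C10, the median was 0.50 in I and -0.92 in C10. In CF against REF, 0 of 9 members were called by limma against 0 % of all genes, 0 passed an unadjusted p below 0.05 in either direction against 3.21 % of genes lower and 3.10 % higher, and the rank product called 0 against 0.246 %. Tnfrsf17 differed by -0.04, Derl3 by 0.16 and Mzb1 by 0.19. In I against REF, 0 of 9 were called against 0 %, 2 (Prdm1 and Derl3) were higher at an unadjusted p below 0.05 against 2.94 %, and the rank product called Pou2af1 alone (1 member, against 0.151 %).
As fitted, only 1 member, Xbp1 at -0.01, was lower in I than in REF against 47.4 % of all genes. In CF against I, 0 members were called by limma against 0 % of all genes, 0 passed an unadjusted p below 0.05 against 1.16 % lower and 1.65 % higher, and the rank product called 0 against 0.0754 %. All 9 were lower in CF against 48.6 % of genes, with a median of -0.35. These comparisons share rats with each other, so their directions are given side by side only, and the counts by sign include Irf4, which was near background.

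The differences between the 2 rats of an array are free of array effects but keep a dye effect. For Derl3 they were -0.40 and -0.40 in C10 minus REF, -0.91 and -1.40 in C10 minus CF, 0.82 and 0.47 in I minus CF, and 0.06 and 0.05 in I minus REF. For Tnfrsf17 the same pairs gave -0.58 and -0.79, -1.55 and -2.45, 1.66 and 0.78, and -0.11 and -0.23. Both genes were thus lower in the C10 rat of all 4 arrays that held one, and the larger differences came from the arrays shared with CF.
For Mzb1 the C10 minus REF differences were 0.01 and -0.16, and those of C10 minus CF were -1.05 and -2.50. The 2 arrays that held both C10 and REF rats therefore showed little difference in Mzb1, and its fitted -0.92 drew on REF and C10 rats of different arrays. On the arrays that held I and REF rats, I minus REF was -0.15 and -0.06 for Mzb1. The fitted I against REF differences of Mzb1 (0.65), Tnfrsf17 (0.48) and Derl3 (0.51) thus also drew on rats of different arrays. Pigr was higher in the C10 rat by 0.59 and 0.47 on the arrays shared with REF.

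**Figure D3:**
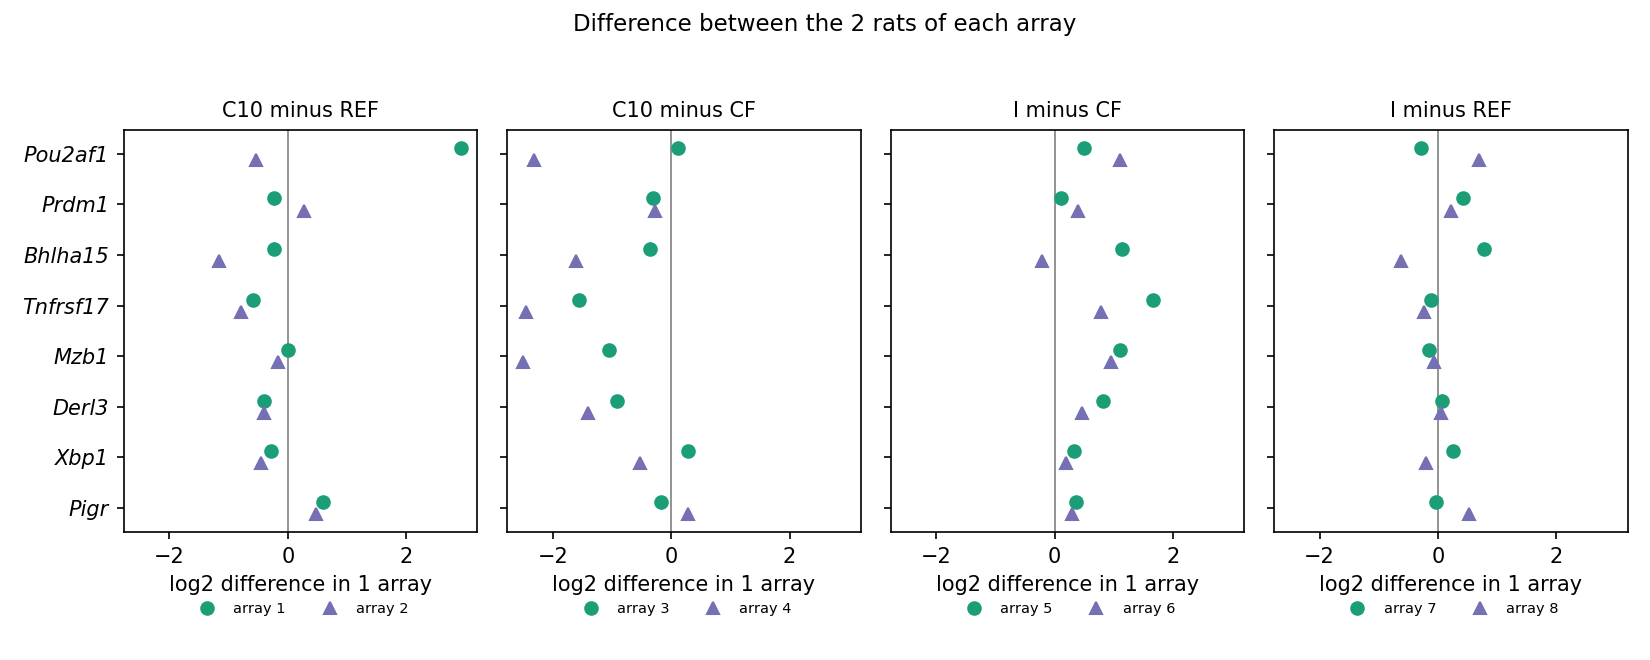
Log2 difference (x axis) between the 2 rats of each array for 8 genes (y axis), 1 point per array and 2 arrays per panel. Tnfrsf17 and Derl3 lie left of 0 on all 4 arrays with a C10 rat, while Pou2af1 reaches from -2.32 to 2.93.

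Among the members, Mzb1, Tnfrsf17 and Derl3 varied together from rat to rat. Because no probe was matched to Jchain, Mzb1 was taken as the gene to compare with, and 8 relations were computed over the 16 rats. Tnfrsf17 had r = 0.95 with Mzb1 (permutation p = 1e-05, the smallest that 100000 permutations gave, adjusted p = 4e-05, rho = 0.89), and Derl3 had r = 0.93 (permutation p = 1e-05, adjusted p = 4e-05, rho = 0.87). Without C10 rat 4 and I rat 1, the rats farthest from the median of Mzb1, r was 0.90 and 0.89. With diet and dye removed it was 0.92 and 0.87, within arrays 1 to 4 it was 0.95 and 0.93, and within arrays 5 to 8 it was 0.93 and 0.85, so rats on the same diet also varied together.

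Bhlha15 had r = 0.74 with Mzb1 (permutation p = 0.00108, adjusted p = 0.00288, rho = 0.57), which was 0.52 without the same 2 rats. For Irf4, r was 0.64, but it was well above background in only 4 of 16 rats, so this value is not read as a relation. Pou2af1 had r = 0.57 (permutation p = 0.0193, adjusted p = 0.0309, rho = 0.46 with adjusted p = 0.126), and over all rats this relation rested on the 2 rats, as r was 0.17 without them. It was 0.57 in the 8 rats on arrays 1, 3, 5 and 7, 0.96 in the 8 rats on arrays 2, 4, 6 and 8, and 0.55 with diet and dye removed. Prdm1 (r = 0.44, permutation test, adjusted p = 0.121), Xbp1 (r = 0.22, adjusted p = 0.465) and Pigr (r = -0.01, adjusted p = 0.959) did not pass.

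Markers of B and T cells set the arrays apart, and Pou2af1 differed between the same arrays with some overlap. The mean log2 signal of 14 B cell markers was 7.81 to 9.74 in the 8 rats on arrays 1, 3, 5 and 7 and 7.09 to 7.32 in the 8 rats on arrays 2, 4, 6 and 8, and T cell markers (12 genes) had 7.92 to 9.58 and 7.13 to 7.68. The array numbers follow the order of the records, each diet had 2 rats in either set, and the sets were noticed after the values were seen. Pou2af1 averaged 11.25 in the first set (9.39 to 12.54) and 9.08 in the second (7.38 to 10.09). Mzb1 averaged 8.45 and 8.28, Tnfrsf17 7.98 and 8.06, and Derl3 8.58 and 8.66.

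As the B and T cell marker means fall into separate clusters, relations with them are given within a set of 8 rats and as descriptions. Pou2af1 and the B cell markers had r = 0.97 in the first set and 0.02 in the second, and Pou2af1 and the T cell markers had 0.95 and 0.97. Mzb1 and the B cell markers had r = 0.52 and 0.05, and in the second set Pou2af1 varied with Mzb1 (r = 0.96) and the T cell markers. The B cell marker mean spanned only 7.09 to 7.32 in the second set (SD 0.0822, against 0.671 in the first). That range is too narrow for r to show whether a relation with the B cell markers exists there. None of the 14 B cell markers and none of the 12 T cell markers passed the limma test in any comparison of diets, and the range of either list's mean overlapped between all diets. With the set as a term in the fit, Derl3 in C10 against I was at -1.34 (adjusted p = 0.0288). The difference of the means in C10 against I was -1.10 in the first set and -1.73 in the second for Derl3, and -1.40 and -2.16 for Tnfrsf17. For Bhlha15, C10 minus REF was -0.03 in the first set and -1.88 in the second.

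**Figure D4:**
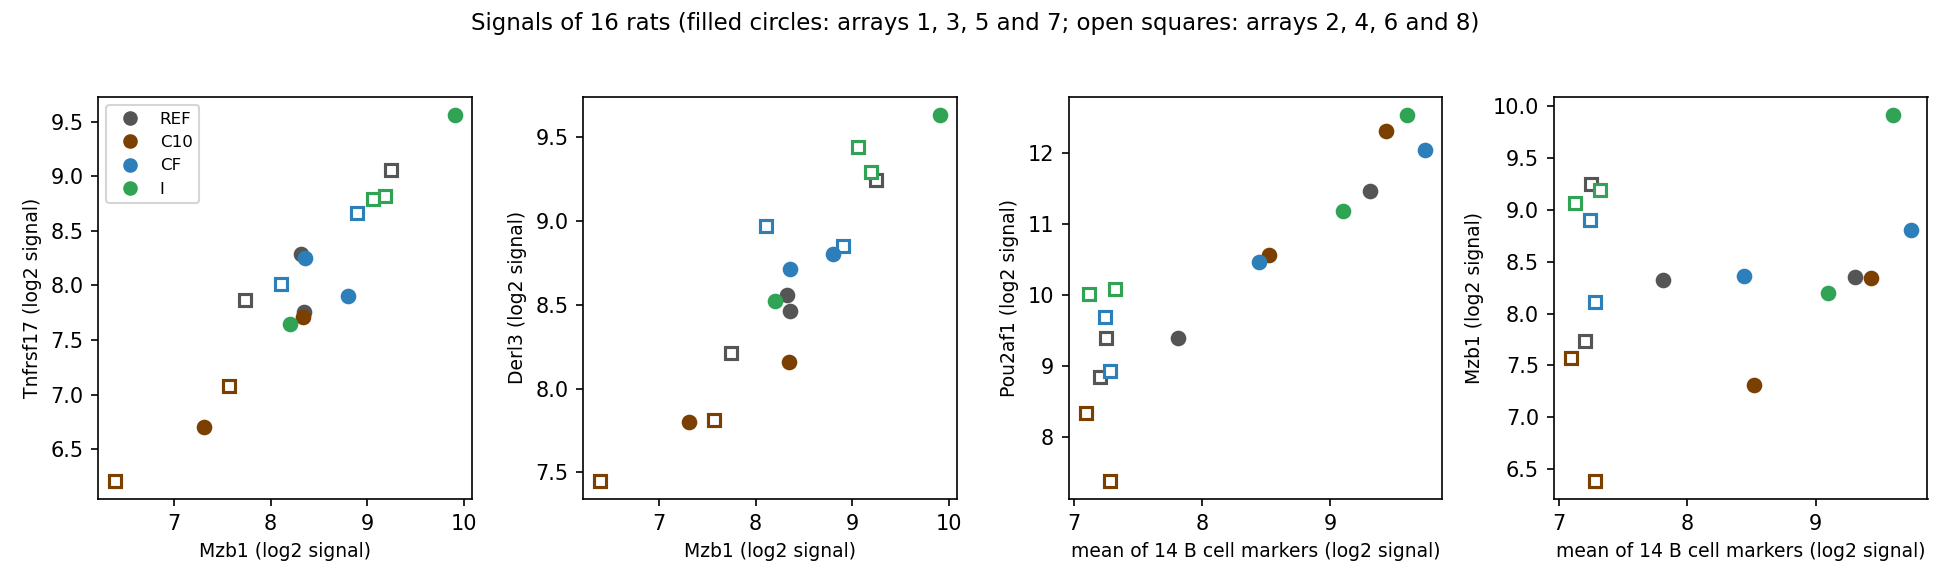
Log2 signals of 16 rats coloured by diet, for Tnfrsf17 and Derl3 against Mzb1 and for Pou2af1 and Mzb1 against the mean of 14 B cell markers; filled circles are rats on arrays 1, 3, 5 and 7 and open squares those on arrays 2, 4, 6 and 8. The left pair of panels shows tight lines (r = 0.95 and 0.93), and in the third panel Pou2af1 follows the B cell markers among the filled circles. The open squares span too narrow a range of those markers to show whether it does so there.

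Mast cell markers were also lower in C10. The mean log2 signal of 10 mast cell markers was 7.08 to 7.46 in C10 and 7.85 to 8.20 in the other 12 rats. At an adjusted p below 0.05 and any fold, 6 of 10 mast cell markers were lower in each of C10 against REF, CF and I, against 0.608, 0.342 and 0.412 % of all genes, and 4, 2 and 4 were also called. In C10 against REF, Mcpt1, a mast cell protease, was at -2.49 and Cpa3, a carboxypeptidase of mast cell granules, at -1.58. The markers of smooth muscle (8 genes, none past the test) overlapped, with a mean log2 signal of 11.51 to 13.71 in C10, where rat 1 alone was at 11.51, and of 12.99 to 13.96 in the other diets. The mean of 4 Hox genes that mark position along the colon, none past the test either, was 8.93 to 10.51 in C10 and 6.68 to 9.55 elsewhere. Of these 4, Hoxb13 had a fitted 2.76 (SE 1.37) in C10 against REF, and Hoxd12 was well above background in only 6 of 16 rats. Over the 16 rats Mzb1 had r = 0.77 with the mast cell marker mean (permutation test, adjusted p = 0.00261) and 0.63 with diet and dye removed. With the mean of the Hox genes r was -0.64 (permutation test, adjusted p = 0.0381, rho = -0.59 with adjusted p = 0.0747) and -0.59 with diet and dye removed. Without the 2 rats farthest from the median of each marker mean, r was 0.54 and -0.39. What part these cells, or the place where the piece was cut, had in the lower Derl3, Tnfrsf17, Mzb1 and Bhlha15 was not tested.

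Of 8 genes that bring IgA plasma cells to the gut, all were measured. Ccr10, the chemokine receptor of IgA plasma cells, had log2 signals of 7.76, 7.40, 7.26 and 8.25 in REF, 7.26, 7.06, 6.72 and 6.34 in C10, 7.51, 8.20, 7.60 and 7.54 in CF, and 8.25, 8.17, 7.30 and 8.29 in I. All C10 rats lay below those of each of the other diets, with an edge towards REF too narrow to show at 2 decimals, but the differences of -0.81 from REF (SE 0.24, adjusted p = 0.111), -0.91 from CF (adjusted p = 0.119) and -1.19 from I (SE 0.26, adjusted p = 0.0648) did not pass. Ccr10 is also in the list that the study drew from these rats.

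Ccl28, the epithelial ligand of Ccr10, went the other way against CF and I. Its log2 signals were 10.66, 10.74, 10.83 and 10.78 in REF, 10.99, 10.69, 10.91 and 10.65 in C10, 10.25, 10, 10.14 and 10.48 in CF, and 10.55, 10.15, 10.20 and 10.35 in I. The REF and C10 rats overlapped, and all 8 of them lay above all 8 CF and I rats. C10 was higher by 0.62 than CF (SE 0.10, adjusted p = 0.0238) and by 0.56 than I (SE 0.11, adjusted p = 0.0383), changes below 2-fold. In C10 against CF, 0.0804 % of all genes were higher at that threshold and 1.57 % had all C10 rats above all CF rats, and the shares in C10 against I were 0.151 and 3.33 %. CF and I were lower than REF by 0.54 and 0.47 as fitted, without passing (adjusted p = 0.682 and 0.544).
The other 6 homing genes did not pass in any comparison.

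**Figure D5:**
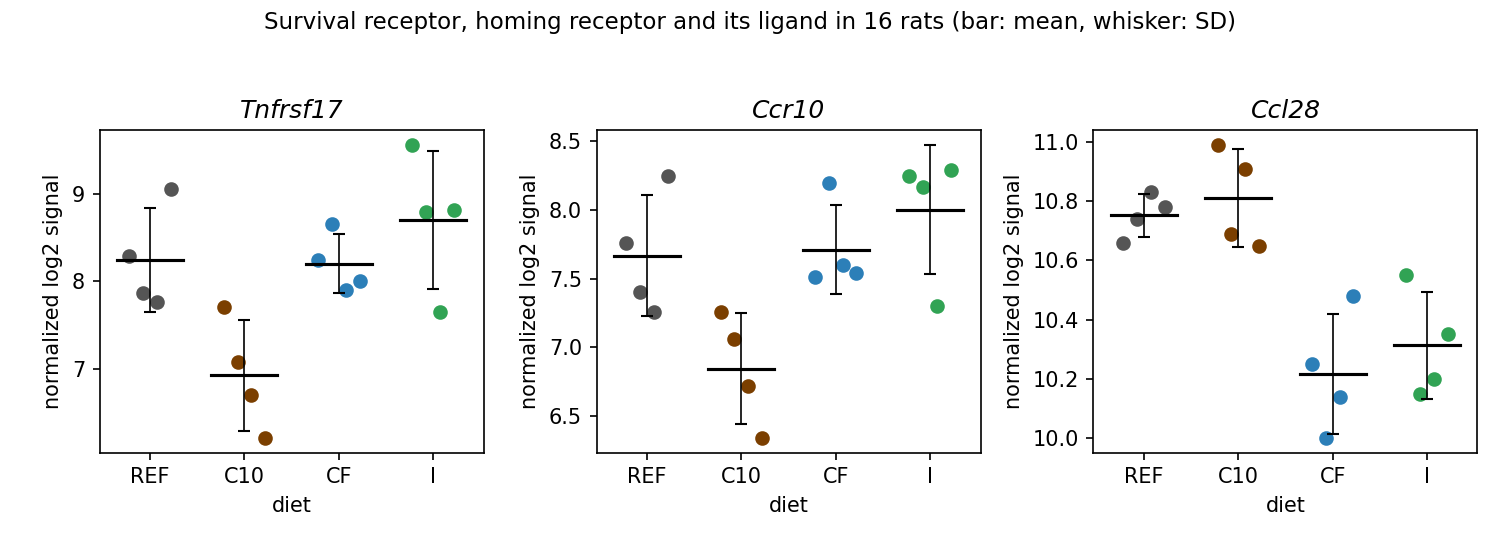
Normalized log2 signal (y axis) of Tnfrsf17, Ccr10 and Ccl28 in each rat by diet (x axis), with the mean as a bar and the SD as a whisker. Tnfrsf17 and Ccr10 are lowest in C10 (means 6.93 and 6.84), whereas Ccl28 is at 10.81 in C10 and 10.75 in REF and at 10.22 and 10.31 in CF and I.

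The wider secretory apparatus of the endoplasmic reticulum, which other colon cells also use, was represented by 40 tested genes of 47 listed. None passed in any comparison by limma, and 12 of 40 were lower and 4 of 40 higher at an unadjusted p below 0.05 in C10 against REF, against 8.40 % and 8.70 % of all genes, with a median of -0.15. The signal peptidase subunit Sec11c came closest (log2 -0.62, SE 0.14, adjusted p = 0.0506), followed by Selenok (-0.37, adjusted p = 0.0639), Ssr4 of the translocon (-0.35, adjusted p = 0.0673) and the prolyl isomerase Fkbp11 (-0.79, adjusted p = 0.0935). None of 10 tested genes of plasma cell surface and survival and none of 9 tested genes of IgA class switching passed in any comparison, with medians of 0.02 and 0.03 in C10 against REF.

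The genes most like the members over the 16 rats were ranked by their correlation with the mean of 8 members, as a description. Pigr was left out of that mean, and Irf4, which was near background, was kept in it. Ccr10 came first (r = 0.93), followed by Cacng6 and Cd52 (0.92 each), Klrc3 (0.90), Clec9a and Klri1 (0.88 each). Klri2 and Slfn4 (0.87 each) and Sectm1a and Aqp9 (0.85 each) completed the first 10. Cd52, a surface glycoprotein of lymphocytes, was called by limma in C10 against I (-1.05, SE 0.17, adjusted p = 0.0152). Slfn4 was called in C10 against I (-1.12, SE 0.20, adjusted p = 0.0276) and against CF (-1.14, SE 0.19, adjusted p = 0.0245). These genes were picked for following the members in these same rats. A fall in C10 was thus favoured by the choice, and their p-values are not separate evidence.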

How the data were processed

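RNA of the mid-colon of 16 rats was labelled in Cy5 or Cy3 and hybridised on 8 Agilent arrays with 62976 spots. The deposited files held median spot and background intensity per channel, which the authors extracted with Feature Extraction 10.7.3.1 (submitters' processing notes) and did not normalize in these files. In limma 3.58.1 (R 4.3.3) the background was corrected by normexp (offset 50), dyes were aligned by spatial (span 0.4) and intensity loess (span 0.3), and channels by Aquantile. Probes well above background in 4 of 16 rats (22539 of 30367) were kept, and the brightest probe stood for each of 19901 genes, of which 11922 had a symbol. Diet and dye were fitted per channel with the array as a random block (correlation 0.418), with Benjamini-Hochberg adjustment over all genes. The alternatives were other background, normalization, probe and filter settings, a rank product with 100 permutations, the processed signals, within-array ratios and leaving out each rat. Named genes were the members, the leading genes of each list and the 10 most like the members. The members and lists were chosen with earlier results of these data known. Fits were tested on simulated data. A series table with 8 value columns was not used. Whether rats shared cages or RNA was prepared in batches is not given in the sources used here, and 4 rats per diet limit the precision.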

Additional observations from a re-analysis of the deposited data

Results flagged for a closer look

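In 36 groups of 4 rats, 2 held a value far from the others, and chance gives about 1 in 20 such groups. The log2 signal of Xbp1 was 12.65 in C10 rat 3 and 12.24 to 12.27 in the other 3 C10 rats. The log2 signal of Irf4 was 6.07 in CF rat 4, where it was not well above background, and 6.21 to 6.22 in the other 3 CF rats.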

How the results depend on the processing

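No called value changed direction under any alternative. With the processed signals, 1 member was separated in C10 against REF, and the median change of the members was 0.61 in I against REF and -1.20 in C10 against I. Averaging the probes of a gene gave a median of -0.19 in C10 against CF and -0.43 in C10 against I. The set of arrays, 1 to 4 against 5 to 8, as a term gave -0.27 and -0.45. In C10 against I, within-array log ratios gave -0.45 and no normalization between arrays gave -0.70. Under the averaged probes, the within-array ratios and the set term, 0 members were called in C10 against I. The rank product called 2 members in C10 against REF, 1 in I against REF, 3 in C10 against CF and 5 in C10 against I. Its shares of all genes in the same order were 0.683, 0.151, 0.327 and 0.548 %. The relation of Mzb1 with Pou2af1 was 0.53 without normalization between arrays (permutation test, adjusted p = 0.058) and 0.52 with averaged probes (permutation test, adjusted p = 0.0636).

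Leaving out 1 rat at a time gave 0 to 1 members called in C10 against CF (1 without C10 rat 1) and 0 to 3 in C10 against I (3 without C10 rat 1, 2 without REF rat 4 or I rat 3, and 0 without C10 rat 3, C10 rat 4, CF rat 1, I rat 1, I rat 2 or I rat 4). Members separated ranged from 2 to 4 in C10 against REF, 0 to 1 in CF against REF, 0 to 2 in I against REF, 2 to 4 in C10 against CF, 2 to 5 in C10 against I and 0 to 3 in CF against I. The share of all genes separated was counted for the main fit only, so these counts have no share to stand beside and are not read as a result. The median change ranged from -0.94 to -0.21 in C10 against REF, from -0.85 to -0.17 in C10 against CF, from -1.23 to -0.40 in C10 against I and from -0.42 to -0.13 in CF against I, where -0.17 and -0.40 came without C10 rat 4, -0.13 without I rat 1, and -0.94, -0.85 and -1.23 without C10 rat 1. The correlation with Mzb1 ranged from 0.39 to 0.64 for Pou2af1 and from 0.54 to 0.68 for Irf4, whose values lay near background. The cause of these shifts was not tested.

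Genes called among all tested were 39 in C10 against REF (0 to 136 over the settings, 17 without REF rat 2 and 94 without REF rat 3), 20 in C10 against CF (0 to 65, 0 without CF rat 1 or CF rat 2 and 39 without C10 rat 1) and 33 in C10 against I (0 to 109, 15 without I rat 2 and 60 without C10 rat 1). The labels give the diets no shared replicate numbers. Rats were paired by array, and the fit of the within-array log ratios called 0 genes in C10 against REF, CF and I. No array paired a C10 rat with an I rat, so that comparison ran through the REF and CF rats. Irf4 was limited by its signal near background.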
